A study of Mus musculus with 2 samples.

Results

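The genes described here are 9 markers of the trophoblast lineage, the cells that build the placenta: the transcription factor genes Cdx2, Eomes, Elf5, Hand1, Gata3, Gata2 and Tfap2c and the keratin genes Krt8 and Krt18. They were taken by symbol from the 22556 genes of a count table of messenger RNA. The libraries came from mouse embryonic stem cells (mESCs) of the female iXist-ChrX-Dom line, a Dom/129S x Cast hybrid. In this line a TetOn promoter replaces the promoter of Xist on the Dom/129S X chromosome, and the cells had not been induced with doxycycline (0 h). There were 2 replicates of this single condition and line, with no trophoblast sample, so levels can be described but no conditions can be compared. Nothing says whether the replicates were separate cultures. The cell type label reads mESC to NPC, while the titles name ES cells. The cells had been grown with serum and LIF on fibroblast feeders, which were depleted by pre-plating.

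The trophectoderm is the outer epithelium of the blastocyst and the source of trophoblast stem cells. In it, the factor TEAD4 with its coactivators YAP1 and WWTR1 turns on Cdx2 and Gata3, and CDX2, EOMES and ELF5 then hold trophoblast stem cells in their state. Mouse ES cells come from the inner cell mass, in which pluripotency factors oppose this programme. Several of the genes have other known uses: Eomes in the primitive streak and in lymphocytes, Gata2 and Gata3 in blood cells, Tfap2c in primordial germ cells, Hand1 in the heart and in mesoderm, and Krt8 and Krt18 in simple epithelia at large.

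Tfap2c and Eomes were clearly measured, and the other 7 had 0 to 32 counts per library. Levels are given as TPM, which are counts per kb of exonic length scaled to 1000000 per library. Tfap2c stood at 27.5 ± 2.75 TPM (SD, n = 2) and Eomes at 12.5 ± 2.38 TPM. Gata2 was the only other marker with a mean of at least 1 TPM. That level was reached by 3 of the 9 markers, against 55.3% of all 22211 genes with a known length. A level of 10 TPM was reached by 2 of the 9, against 34.0% of these genes. The median was 0.606 TPM over the markers and 1.83 TPM over all genes. In bulk libraries, few cells with much of an RNA and many cells with little of it cannot be told apart.

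The letters before the transcription start are shown for Eomes, the marker with a start in the RefSeq promoter table (GRCm38.p6) that had the most counts, for Cdx2, which had none, and for both starts of Elf5, whose promoter is known to be methylated in ES cells and unmethylated in trophoblast stem cells. Each is the 250 bases upstream of the start, 5′ to 3′ on the strand of the gene, with CpG dinucleotides, the targets of DNA methylation, in capitals. Eomes lies at chr9:118477939-118478188 (plus strand), Cdx2 at chr5:147307250-147307499 (minus strand), the first Elf5 start at chr2:103411848-103412097 and the second at chr2:103423818-103424067 (plus strand).
Eomes: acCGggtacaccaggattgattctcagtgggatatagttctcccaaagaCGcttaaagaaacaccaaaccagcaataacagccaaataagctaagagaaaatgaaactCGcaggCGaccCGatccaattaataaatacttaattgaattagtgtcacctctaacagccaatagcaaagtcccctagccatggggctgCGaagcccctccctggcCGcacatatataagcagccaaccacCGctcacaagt
Cdx2: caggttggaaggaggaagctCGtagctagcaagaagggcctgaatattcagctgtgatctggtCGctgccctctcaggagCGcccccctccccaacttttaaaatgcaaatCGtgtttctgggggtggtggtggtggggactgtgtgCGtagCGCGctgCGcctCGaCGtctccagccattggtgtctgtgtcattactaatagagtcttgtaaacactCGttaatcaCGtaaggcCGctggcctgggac
Elf5, first start: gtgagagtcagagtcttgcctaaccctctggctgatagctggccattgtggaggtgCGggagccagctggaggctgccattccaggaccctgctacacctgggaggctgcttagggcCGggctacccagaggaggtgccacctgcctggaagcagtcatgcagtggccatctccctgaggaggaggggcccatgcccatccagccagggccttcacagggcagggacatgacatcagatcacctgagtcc
Elf5, second start: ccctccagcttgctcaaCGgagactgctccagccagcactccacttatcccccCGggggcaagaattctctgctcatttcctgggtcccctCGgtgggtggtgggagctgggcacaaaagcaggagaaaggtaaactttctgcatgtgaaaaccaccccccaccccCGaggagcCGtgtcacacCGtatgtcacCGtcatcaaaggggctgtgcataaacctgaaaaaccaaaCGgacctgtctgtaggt

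The Eomes window held 8 CpGs and the Cdx2 window 13. The Elf5 windows held 2 and 8. Over all 32851 windows of this length in the promoter table the median was 6, with quartiles at 2 and 16. Of the windows of other markers, Krt8 had 3 CpGs, Krt18 had 12, Gata3 had 19 and the pair of Gata2 starts had 22 and 24. The 7 markers with a window thus ran from 18.8% to 88.0% when ranked by the share of windows with fewer CpGs, and markers with few counts were found at both ends. The exact string TATAAA, a common spelling of the TATA motif, was searched on both strands. It was in none of the 9 windows of these markers and in 12.4% of all windows. Other spellings were not searched, and the Eomes window holds tatataag near its end. No DNA methylation was measured in this series.

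**Figure D1:**
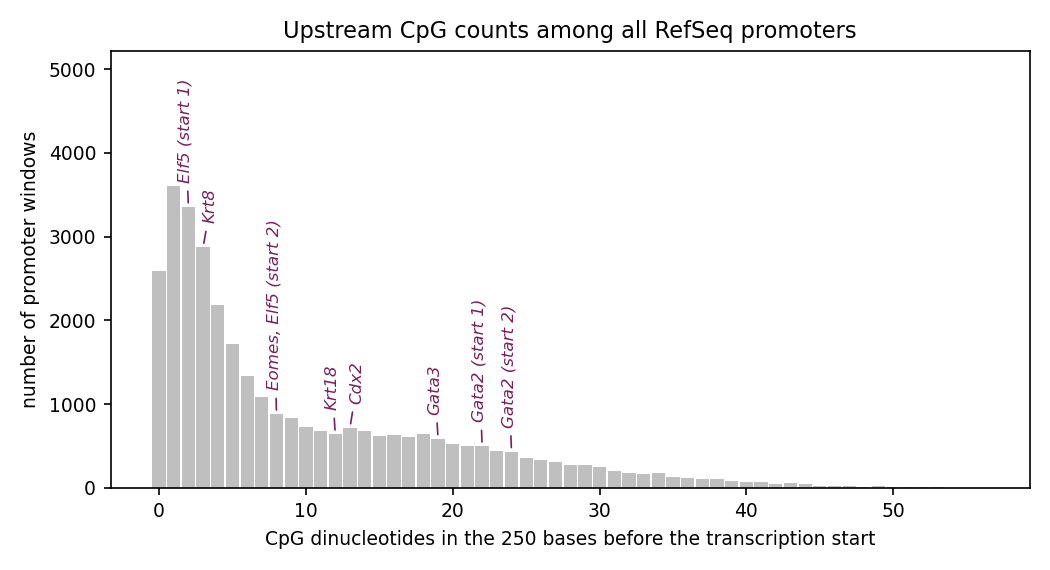
Histogram of all RefSeq promoter windows (y axis, number of windows) by the number of CpG dinucleotides in the 250 bases before the start (x axis), with the windows of 7 markers named on it. The first Elf5 start and Krt8 sit in the CpG-poor peak, at 2 and 3, and the Gata2 starts lie farthest to the right, at 22 and 24.

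Tfap2c encodes the AP-2 gamma factor, which is needed in the trophectoderm and its descendants and also acts in primordial germ cells. It had 728 counts in replicate 1 and 508 in replicate 2, or 29.4 and 25.5 TPM. It was the highest of the markers in each library, and 76.8% of genes had a lower mean. It lies on chromosome 2 from 172549592 to 172558621 on the plus strand (mm10, as in the count table). No other AP-2 gene came near it, as the family values show.

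Eomes encodes a T-box factor that is required for trophoblast stem cells and later for the primitive streak. It had 396 and 243 counts, or 14.2 and 10.8 TPM, and 68.4% of genes had a lower mean. The lower Tfap2c library exceeded the higher Eomes library, so the levels of these 2 genes did not overlap. The means differed by 2.19 times. The Eomes mean was in turn 10.4 times that of Gata2, the next marker. Eomes lies on chromosome 9 from 118478188 to 118486132, plus strand. Together Tfap2c and Eomes made up 92.2% ± 0.0894 (SD, n = 2) of the summed level of the 9 markers, which was 43.4 ± 5.60 TPM.

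GATA2 and GATA3 are zinc finger factors of the trophectoderm and trophoblast that bind the same GATA motif. Gata2 had 32 and 28 counts, or 1.15 and 1.25 TPM. Gata3 had 12 and 14 counts, or 0.494 and 0.717 TPM. Each gene was thus near 1 TPM or below in each library, with Gata2 the higher in both. Gata3 lies on chromosome 2 from 9857077 to 9878600, minus strand. The table counts Gata2 only from 88198663 on chromosome 6, so reads of the first exon at its upstream start, which the promoter table places after 88193890, were not counted for it.

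KRT8 and KRT18 are partners: a type II and a type I keratin that build the filaments of simple epithelia, trophectoderm included. Krt8 had 8 and 6 counts, or 0.541 and 0.505 TPM. Krt18 had 14 counts (95% exact Poisson interval 7.65 to 23.5) and 3 counts (0.619 to 8.77), or 1.29 and 0.344 TPM. The 2 genes therefore lay in the same range, with Krt18 higher in replicate 1 and Krt8 higher in replicate 2. The order in replicate 2 rests on 6 against 3 counts. It was lost with the transcribed span as length, at 0.696 TPM for Krt8 and 0.697 TPM for Krt18. Their share of the summed marker level was 3.01% ± 1.21 (SD, n = 2). The Krt8 value is uncertain, because 26.9% of the 50-base words of its transcript also occur in the pseudogene Krt8-ps and reads from them may not have been placed. For the other markers this share was at most 0.720%, in Krt18. The keratin genes lie 23873 bp apart on chromosome 15, Krt8 from 101996710 to 102004342 (minus strand) and Krt18 from 102028215 to 102032026 (plus strand).

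ELF5 is an Ets factor that closes a loop with CDX2 and EOMES in trophoblast stem cells. Elf5 had 4 counts in each library (95% exact Poisson interval 1.09 to 10.2 counts), or 0.199 and 0.248 TPM, just above the level that 3 counts give. It lies on chromosome 2 from 103412097 to 103450988, plus strand. Hand1, a helix-loop-helix factor that drives trophoblast giant cells, had 1 count in replicate 1 and 0 in replicate 2. Cdx2, the homeobox factor that sets up the trophectoderm, had 0 counts in both. By the rule of 3, a one-sided bound, a count of 0 allows up to 3 counts (the two-sided exact Poisson limit is 3.69 counts), which is 0.126 CPM (counts scaled to 1000000 per library) in replicate 1 and 0.148 CPM in replicate 2. For Cdx2 this is 0.176 and 0.219 TPM. Such limits cover counting error only. Cdx2 (chromosome 5, 147300899 to 147307249, minus strand) and Hand1 (chromosome 11, 57828712 to 57832147, minus strand) were not detectable above this limit, which does not show that they are absent.

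**Figure D2:**
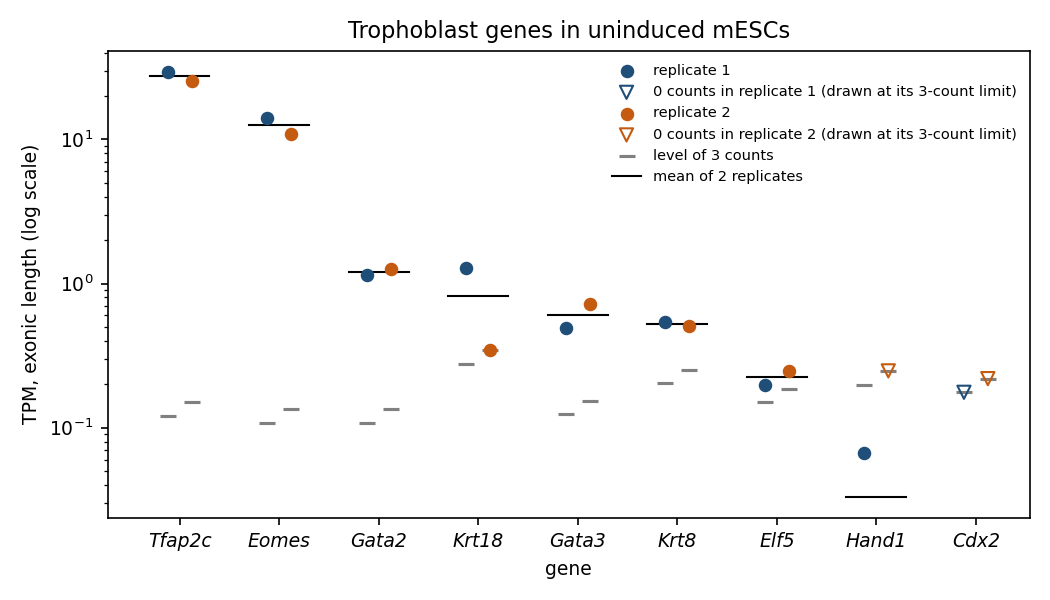
Level of the 9 markers (x axis) in TPM with exonic length on a log scale (y axis), 1 filled point per replicate, with a bar at the mean of 2 replicates. Open triangles stand for 0 counts, drawn at the level of 3 counts, which grey dashes give for each gene. Tfap2c and Eomes stand more than 10 TPM high in each replicate, and Hand1 and Cdx2 do not rise above the grey dashes.

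The order by mean was Tfap2c, Eomes, Gata2, Krt18, Gata3, Krt8, Elf5, Hand1 and Cdx2. From Gata2 to Krt8 the replicate values of each neighbouring pair overlapped. The values of Krt18 overlapped those of Gata2, Gata3 and Krt8, and Gata2 lay above Gata3 and Krt8 in both libraries. Krt8 exceeded Elf5 in both libraries, but on 14 against 8 counts in all. Hand1 and Cdx2 could not be told apart. When TPM was computed with the transcribed span, introns included, Tfap2c (52.1 ± 3.22 TPM) and Eomes (30.3 ± 4.62 TPM) also led. With that length Krt18 was the fourth gene above 1 TPM, at 1.59 ± 1.26, Krt8 passed Gata3, and Hand1 passed Elf5.

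The loci differed in their surroundings. No listed gene overlapped a marker, so none of these counts was lost to a second gene of the table. GENCODE M21 places a gene on the opposite strand across Eomes (Gm33460), Gata3 (Gm13256) and Krt8 (Gm36026), and the counting used strand. Cdx2 lay between Pdx1, 25750 bp away, and Urad, 7734 bp away, and both of these also had 0 counts in each library. Elf5 ended 2915 bp from Cat, the catalase gene on the opposite strand, which had 871 and 827 counts. Eomes lay 20185 bp from Golga4, with 5592 and 4246 counts, and Krt18 lay 41746 bp from Eif4b, with 17805 and 11675 counts. Markers with few counts were thus found beside genes without counts and beside genes with many.

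Each factor was next set beside the rest of its family. Of 16 T-box genes, 6 reached 1 TPM. Tbx3, a factor of the naive state, was highest at 34.2 ± 1.68 TPM (SD, n = 2), Eomes came next, and T (Brachyury), the marker of the primitive streak, stood at 4.57 ± 1.68 TPM. With span length these 3 genes kept their order, at 67.1, 30.3 and 6.02 TPM. Of 5 AP-2 genes, Tfap2c alone reached 1 TPM. Tfap2e followed at 0.460 ± 0.427 TPM and Tfap2a at 0.232 ± 0.0356 TPM, an order that turned with span length. Tfap2d had no count in either library.

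Of 6 GATA genes, 3 reached 1 TPM. Gata4 at 1.46 ± 0.168 TPM and Gata6 at 1.42 ± 0.200 TPM, both factors of primitive endoderm, lay slightly above Gata2 at 1.20 ± 0.0720 TPM. With span length the order turned and Gata2 alone reached 1 TPM, at 2.77 TPM against 0.721 TPM for Gata6 and 0.603 TPM for Gata4. The Ets genes of the Elf group showed the opposite layout, since 4 of 5 reached 1 TPM and Elf5 was the lowest. Elf2 stood at 34.2 ± 0.0565 TPM, Elf1 at 33.4 ± 1.19 TPM and Elf4 at 4.25 ± 1.15 TPM. With span length Elf2 stood at 16.3 TPM and Elf1 at 7.47 TPM, and Elf5 was again the lowest.

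None of the 3 Cdx genes reached 1 TPM. The X-linked gene Cdx4 was highest at 0.572 ± 0.141 TPM, and Cdx1 had 0 and 1 counts. Hand2, the only relative of Hand1, had 0 counts in both libraries. Of 48 keratin genes in the table, 31 had no count in either library. Among the 47 with a length, 2 reached 1 TPM, namely Krt10 at 9.80 ± 3.23 TPM and Krt222 at 1.60 ± 0.0166 TPM. Krt18 came next. With span length 5 of the 47 reached 1 TPM, led by Krt10 at 26.5 TPM and Krt222 at 2.42 TPM, with Krt18 among them.

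**Figure D3:**
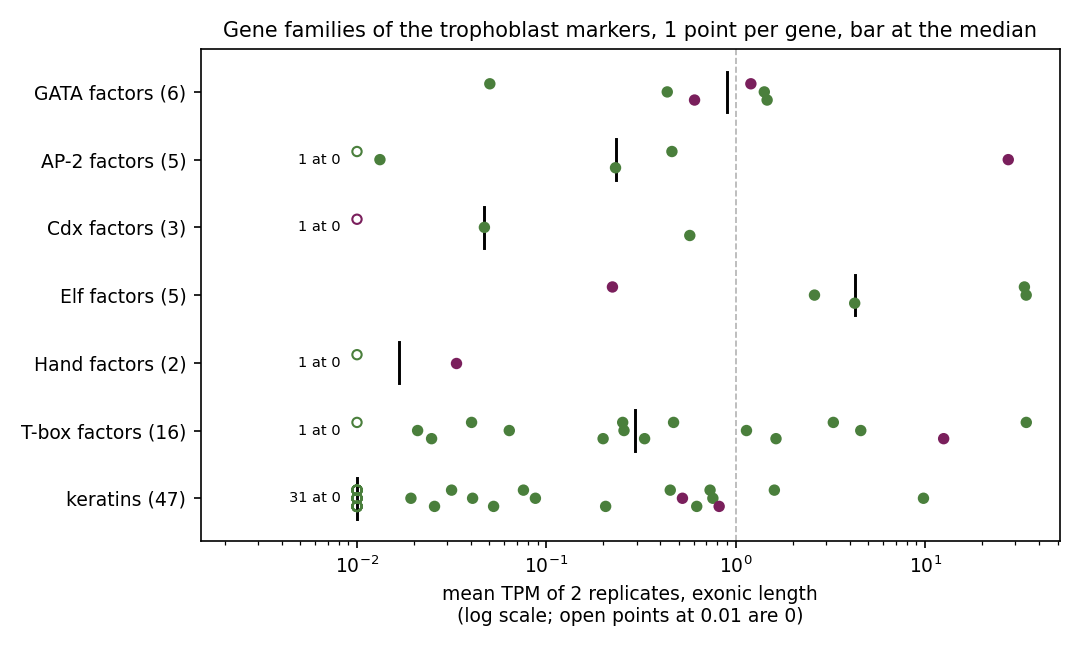
Mean TPM of 2 replicates with exonic length on a log scale (x axis) for each gene of the families to which the markers belong (y axis, number of genes with a length in brackets), with markers in purple, other genes in green and a black bar at the median. Open points at 0.01 are genes with 0 counts. Tfap2c and Eomes lie at or near the top of their families, Elf5 at the bottom of its own, and most keratins are at 0.

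The other genes of the lineage were read from lists. Of 18 genes that act upstream in the trophectoderm or mark trophoblast stem cells, 17 reached 1 TPM, with a median of 6.95 TPM. The summed level was 680 TPM in replicate 1 and 388 TPM in replicate 2. Most of that gap came from Ddah1, an enzyme gene, with 293 TPM in replicate 1 and 44.2 TPM in replicate 2. Yap1, the Hippo coactivator, stood at 103 ± 24.4 TPM (SD, n = 2), and Esrrb, a nuclear receptor shared by ES cells and trophoblast stem cells, at 73.8 ± 39.6 TPM. With span length, which lowers genes with long introns, Ddah1 stood at 24.2 TPM, Yap1 at 31.0 TPM and Esrrb at 13.4 TPM. Esrrb is also in the pluripotency list, and many of the 18 are in use outside the trophoblast, so the list does not mark it alone. Tfap2a was the gene below 1 TPM.

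Genes of differentiated trophoblast were low. Of 13 in the table, 1 reached 1 TPM, the median was 0, and the summed level was 2.81 and 3.13 TPM. Ascl2, a factor of the ectoplacental cone, stood at 1.23 ± 0.125 TPM, Phlda2, an imprinted gene of the placenta, at 0.982 ± 0.151 TPM, and Flt1, a VEGF receptor, at 0.470 ± 0.0154 TPM. With span length 2 reached 1 TPM, Ascl2 at 4.28 TPM and Phlda2 at 3.99 TPM. There were 7 genes with 0 counts in both libraries, named here after their values were seen: Tpbpa, Prl3d1, Prl3b1, Prl2c2, Syna, Ctsq and Pcdh12. Prl3d1 and Prl3b1 encode placental lactogens and Syna a protein that fuses trophoblast cells. Prl2c2 has near-identical copies, so its 0 is uncertain.

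Simple-epithelium genes other than Krt8 and Krt18 were mostly well measured. Of 12, 9 reached 1 TPM, with a median of 8.33 TPM and a summed level of 424 and 400 TPM. Cdh1 (E-cadherin) stood at 144 ± 14.3 TPM, the adhesion gene Epcam at 128 ± 25.2 TPM and the splicing factor gene Esrp1 at 52.4 ± 0.157 TPM. Among the genes below 1 TPM were the keratins Krt7 at 0.206 TPM and Krt19 at 0.451 TPM, named after their values were seen. The means of Krt8 and Krt18 were also below 1 TPM with exonic length, although Krt18 was at 1.29 TPM in replicate 1, while those of Cdh1 and Epcam were over 100 TPM. With span length Cdh1 stood at 50.0 TPM, Epcam at 90.9 TPM and Esrp1 at 19.8 TPM.

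The label of the cells was checked against pluripotency genes. Of 10, 9 reached 1 TPM, with a median of 167 TPM, and Utf1, named after its value was seen, did not, except with span length. Tdgf1, a Nodal coreceptor, stood at 2273 ± 194 TPM, the naive marker Zfp42 at 843 ± 56.1 TPM and Nanog at 771 ± 34.8 TPM. With span length Tdgf1 stood at 3501 TPM, and Nanog at 1263 TPM passed Zfp42 at 695 TPM. In the test between the libraries described below, 9 of these 10 genes passed, against 60.8% of all genes tested. Of the 9, 8 were lower in replicate 2, as were 6640 of the 8842 genes that passed in the whole table. Genes with many counts can pass on small ratios. Nanog, with 13460 and 10151 counts, passed at a log2 ratio of −0.18. The TMM and DESeq2 scalings described below turn that ratio positive. Among the 8, and named after their values were seen, Dppa5a went from 624 TPM in the first library to 79.3 TPM in the other, and Pou5f1 from 110 to 17.2 TPM.

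Because the markers are shared with other lineages, lists for those were read as well. Of 8 genes of primitive streak and mesoderm, which also use Eomes and Hand1, 1 reached 1 TPM (T, above). Pdgfra stood at 0.394 ± 0.105 TPM, Mixl1 at 0.325 ± 0.358 TPM, and Mesp1 and Gsc had 0 counts. All 5 genes of primordial germ cells, which also use Tfap2c, reached 1 TPM. Dppa3 had 96.0 and 33.6 TPM in the 2 replicates, Prdm14 stood at 41.2 ± 2.53 TPM and Prdm1 at 33.3 ± 3.27 TPM. Of 5 genes of blood progenitors, which use Gata2, 1 reached 1 TPM. This was Lmo2 at 3.34 ± 0.912 TPM, followed by Runx1 at 0.601 ± 0.131 TPM and Gata1 at 0.435 ± 0.370 TPM, and Gfi1b had 0 counts. With span length Lmo2 stood at 1.38 TPM and Runx1 at 0.10 TPM. Eomes, at 12.5 TPM, was thus higher than each of the 8 streak genes, and Tfap2c, at 27.5 TPM, lay within the range of the germ cell genes. With no sample of those lineages, these lists cannot tell their cells from ES cells.

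Of 8 primitive endoderm genes, 4 reached 1 TPM, led by Dab2 at 12.2 ± 0.378 TPM, Col4a1 at 4.05 ± 0.837 TPM and Gata4. With span length 3 reached 1 TPM, Dab2 at 2.36 TPM and Col4a1 at 1.22 TPM among them, and Gata4 did not. Of 15 genes of fibroblasts, the kind of cell used as feeders, 5 reached 1 TPM. Vim stood at 172 ± 12.5 TPM, Fn1 at 117 ± 1.41 TPM and Sparc at 52.9 ± 22.4 TPM, and with span length Fn1 stood at 76.9 TPM and Sparc at 28.8 TPM. The median of that list was 0.133 TPM, its summed level was 361 and 347 TPM, and Lum was at 0. Most of the list lay far below its highest genes. Among the low ones, named after their values were seen, Col1a1 stood at 0.114 TPM, Col1a2 at 0.173 TPM and Dcn at 0.111 TPM. The part of feeder or other cells in the levels of the markers was not tested.

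**Figure D4:**
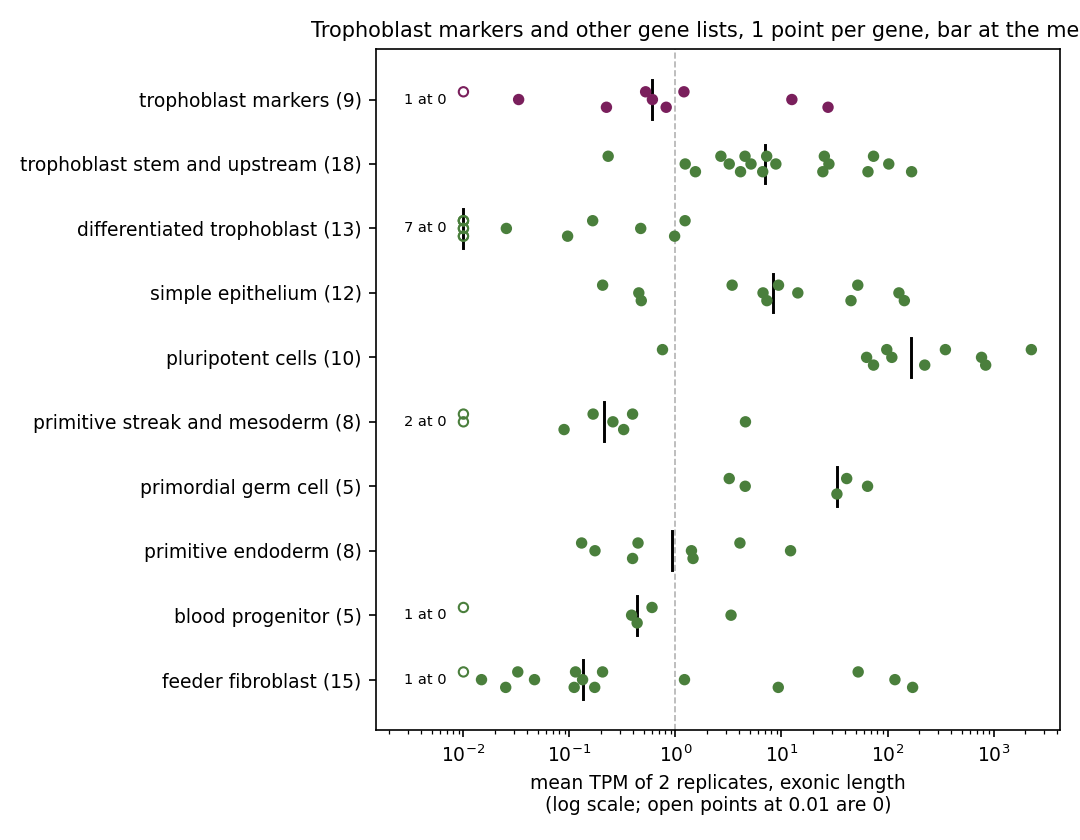
Mean TPM of 2 replicates with exonic length on a log scale (x axis) for the 9 markers (purple) and the genes of each list (green, number of genes in brackets), with a black bar at the median of each list and open points at 0.01 for genes with 0 counts. The pluripotency list has its median at 167 TPM, the upstream trophoblast list at 6.95 TPM, and the differentiated trophoblast list at 0.

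The last question was how far the markers could be measured alike in both libraries. Replicate 1 held 23716499 counts in genes and replicate 2 held 20275749. At least 10 counts in total were found for 6 of the 9 markers, against 64.4% of all genes, and Cdx2, Hand1 and Elf5 were not tested. Each gene was tested for whether its counts split between the libraries as the totals do (exact binomial test, two-sided, Benjamini-Hochberg adjustment over 14536 genes). Of the 6 markers, 3 differed beyond sampling noise, against 60.8% of all genes tested. All 3 were lower in replicate 2. Of the 8842 genes that passed among all those tested, 6640 were lower in replicate 2, which is 45.7% of the genes tested. The test compares 2 libraries, not conditions.

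Eomes was lower in replicate 2 by a log2 ratio of −0.48 (95% exact interval −0.71 to −0.24, adjusted p = 0.000109, exact binomial test). For Tfap2c the log2 ratio was −0.29 (−0.46 to −0.13, adjusted p = 0.00100, exact binomial test). Krt18 had the largest log2 ratio of the 6, at −1.82, on few counts (−4.44 to −0.16, adjusted p = 0.0432, exact binomial test). Gata2 at 0.037, Krt8 at −0.16 and Gata3 at 0.44 did not pass, with intervals that reached from −1.99 to 1.69 over these 3 genes, and the sign of Krt8 turned under each of the scalings given next. The median absolute log2 ratio was 0.37 over the 6 markers and 0.42 over all genes tested.

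These calls depended on the filter and on the scaling of the libraries. When no minimum was set, Krt18 did not pass, and Eomes and Tfap2c did, against 48.5% of all genes. When 10 counts were required in each library, 4 markers were tested, without Krt18, and 2 of them passed, again Eomes and Tfap2c, against 65.2% of all genes. With TMM factors from edgeR, which raise every log2 ratio by 0.22, none of the 6 passed, while 57.7% of all genes did. With DESeq2 size factors, which raise it by 0.31, again none passed, while 57.8% of all genes did, and that shift alone took the log2 ratio of Tfap2c to 0.019. The difference between the libraries also moved with GC content, with a Spearman's rho of −0.64 over 9249 autosomal genes (genes are not independent replicates). The transcripts of the markers held 49.5% to 58.2% GC, all above the median gene at 48.7%. Against the ratio that the GC trend gives, Tfap2c was higher in replicate 2, at a log2 ratio of 0.31 (adjusted p = 0.000775, exact binomial test), and Eomes, at 0.18, and Krt18, at −1.08, did not pass. With that trend 45.6% of all genes passed.

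**Figure D5:**
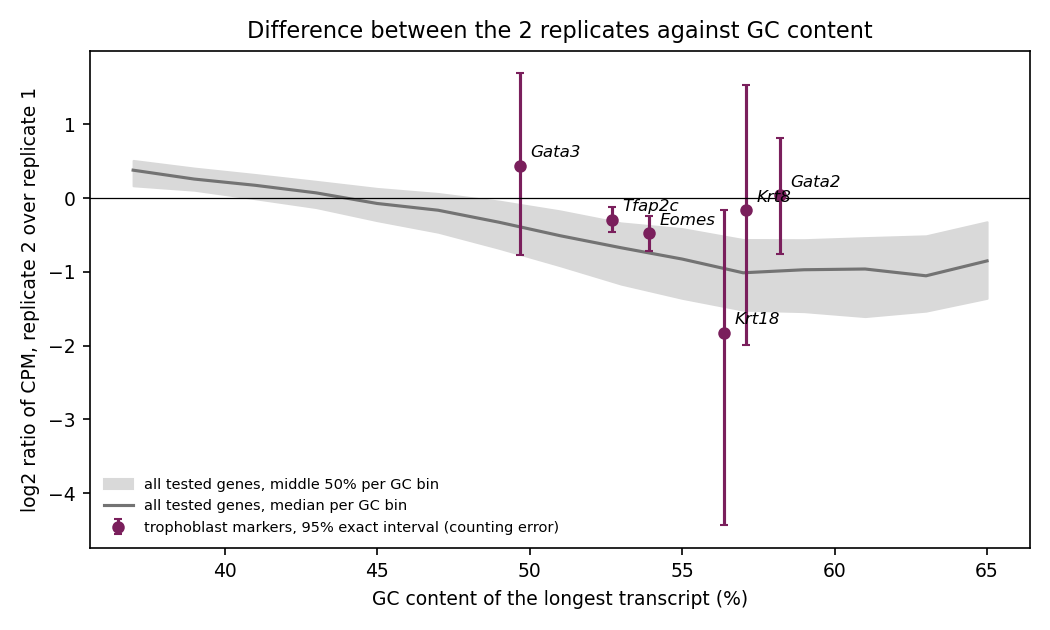
Log2 ratio of CPM, replicate 2 over replicate 1 (y axis), against the GC content of the longest transcript (x axis) for the 6 markers tested, with 95% exact intervals for counting error. The grey line and band give the median and the middle 50% of all genes tested per GC bin. The grey line falls up to a GC content of 57% and is roughly level beyond it, Tfap2c and Eomes lie above it but below 0, and Krt18 lies lowest, at −1.82.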

How the data were processed

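Polyadenylated RNA was isolated with oligo(dT) beads from 2 replicates of uninduced mESCs. The authors deposited raw fragment counts per gene, produced by featureCounts 1.5.2, per the file headers, in paired, reverse-stranded mode over whole transcripts of a non-redundant long-RNA annotation on mm10. The submitters' notes also name Bowtie2 2.3.2 and STAR 2.4.2a, but how these mRNA reads were aligned is not given in the sources used here. The headers of the count columns lack a letter b that the sample descriptions carry and match them otherwise.

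From the deposited counts, CPM and TPM were computed, with the union of GENCODE M21 basic exons as length (98.5% of 22556 genes matched by symbol or older symbol) because the length column includes introns, and replicates were averaged. Genes with at least 10 counts in total entered the binomial test at an adjusted p of 0.05, and the code of the test was checked on simulated counts. Ratios were taken on CPM after adding 0.5 counts. The GC trend was a polynomial of degree 3 fitted to autosomal genes that had 50 counts or more in both libraries. Tools were Python 3.11.15, scipy 1.17.1, R 4.3.3, edgeR 4.0.16 and DESeq2 1.42.0. Alternatives were span length, CPM, other TPM minimums, filters and scalings, and each replicate left out.

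The markers and lists were chosen with earlier results of these data known. Named genes are the 9 markers, the 3 highest genes of each list or family, genes at 0 where a list has at most 5, and neighbouring genes. Genes outside this rule are marked in the text as named after their values were seen. Depth was 23716499 and 20275749 counts. With 2 libraries of 1 group, p-values only set the difference between these libraries against counting error, under the scaling used. That difference may be technical. Likeness of patterns between genes was not computed. Upstream sequences are from RefSeq (GRCm38.p6), and 7 of 9 markers matched. Coordinates of genes are those of the count table, whose starts lie 1 base before RefSeq's for the plus-strand markers with a window.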

Additional observations from a re-analysis of the deposited data

How the results depend on the processing

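Of 55 alternatives other than leaving out a replicate, over 19 results, 27 left a result as it was by the measure set for it (for a test, the same sign and call, for a value, a move under 1 SD, for a count, at most 1.5 times), 16 moved a value, 6 took a call away with the sign kept, and 6 turned a sign, of which 2 also lost the call. Leaving out 1 of 2 replicates moves a mean by less than 1 SD whatever the values, so it says nothing of stability. The count of markers with a mean of at least 1 TPM was 3, and 7 with a minimum of 0.1 TPM. It was 4 with span length, 3 with CPM and 2 with a minimum of 5 TPM. The summed level was 88.1 TPM with span length. The keratin share was 1.48% with CPM. When each replicate was left out in turn, the count ran from 3 to 4 (Krt18 passed 1 TPM without replicate 2), the summed level ran from 39.4 to 47.4 TPM and the keratin share from 2.15% to 3.87%. The number of markers past sampling noise was 3, but 2 with 10 counts required in each library or with no minimum, 0 with TMM factors, 0 with DESeq2 size factors and 1 with the GC trend. Tfap2c turned from a log2 ratio of −0.29 to 0.019 with DESeq2 size factors and to 0.31 with the GC trend, and Eomes from −0.48 to 0.18 with the GC trend. Krt8, which never passed, turned from −0.16 to 0.063 with TMM factors, 0.15 with DESeq2 size factors and 0.60 with the GC trend. The turns with TMM and DESeq2 follow from the constant that each adds to every gene, and Eomes did not pass with the GC trend (adjusted p = 0.215, exact binomial test). That test could not be run with one replicate left out, because it needs both. No paired analysis was possible because no other group shares the replicate numbers. Depth sets the limit for Cdx2, Hand1 and Elf5, which have 0 to 4 counts per library.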
